A study of Mus musculus with 10 samples.

Results

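The genes of respiratory complex I and of its assembly were examined in mouse liver after forced expression of the kinase LKB1. They were taken as every array probe whose annotated gene symbol starts with Ndufa, Ndufb, Ndufc, Ndufs, Ndufv or Ndufaf. This gave 68 probes of 44 gene symbols, out of 45281 probes and 19057 symbols on the array. Livers came from FVB mice, 6 of which received a plasmid encoding wild-type LKB1 by tail vein injection once a week for 8 weeks, and 4 of which were untreated. The 2 groups shared strain and tissue. The labels used here do not state the sex or age of the mice, the promoter of the plasmid, the share of liver cells that took it up, or whether untreated mice were injected. Total RNA of each liver was hybridised to 1 Illumina bead array, which gives 1 fluorescence intensity per probe.

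Complex I, the NADH:ubiquinone oxidoreductase of the inner mitochondrial membrane, passes electrons from NADH to ubiquinone and pumps protons with the energy released. It has a matrix arm, made of an N module that oxidises NADH and a Q module that reduces ubiquinone, and a membrane arm with a proximal and a distal part. Most of its subunits are encoded in the nucleus and the rest in mitochondrial DNA, and dedicated assembly factors, which leave the finished enzyme, join the modules together. LKB1, encoded by Stk11, is the main upstream kinase of AMPK in liver, and AMPK is a sensor of the energy supply that mitochondria provide.

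The promoters of 4 members are shown because their genes recur in the results below. Ndufa6 was the only tested member whose groups did not overlap on its brightest kept probe, Ndufs3 and Ndufc1 had the smallest p of the Q module and of the proximal membrane arm, and Ndufs7 is a core subunit whose group means nearly coincided. Each sequence runs from 250 bases before to 50 bases after the annotated start, 5′ to 3′ on the gene's strand, from RefSeq on GRCm38.p6. The windows are chr15:82354242-82354541 on the minus strand for Ndufa6, chr2:90904672-90904971 on the minus strand for Ndufs3, chr3:51408906-51409205 on the minus strand for Ndufc1 and chr10:80249199-80249498 on the plus strand for Ndufs7. Capitals mark a match to 1 of the motifs described next.
Ndufa6: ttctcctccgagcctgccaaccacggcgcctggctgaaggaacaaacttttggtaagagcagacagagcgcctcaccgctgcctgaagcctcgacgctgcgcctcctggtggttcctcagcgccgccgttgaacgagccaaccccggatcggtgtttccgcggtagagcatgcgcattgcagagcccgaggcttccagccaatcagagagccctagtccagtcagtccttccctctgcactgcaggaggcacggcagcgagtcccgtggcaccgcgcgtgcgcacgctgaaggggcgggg
Ndufs3: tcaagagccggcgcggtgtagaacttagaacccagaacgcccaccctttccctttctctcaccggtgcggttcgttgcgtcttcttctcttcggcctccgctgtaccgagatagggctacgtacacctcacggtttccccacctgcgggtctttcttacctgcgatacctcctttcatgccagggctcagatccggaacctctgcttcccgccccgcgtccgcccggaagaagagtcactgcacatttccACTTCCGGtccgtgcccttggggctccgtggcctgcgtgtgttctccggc
Ndufc1: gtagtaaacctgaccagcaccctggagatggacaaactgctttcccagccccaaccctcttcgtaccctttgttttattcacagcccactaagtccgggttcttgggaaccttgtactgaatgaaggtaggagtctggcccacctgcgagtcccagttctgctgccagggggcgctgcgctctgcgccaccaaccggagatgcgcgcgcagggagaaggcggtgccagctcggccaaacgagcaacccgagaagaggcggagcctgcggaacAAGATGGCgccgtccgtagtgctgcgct
Ndufs7: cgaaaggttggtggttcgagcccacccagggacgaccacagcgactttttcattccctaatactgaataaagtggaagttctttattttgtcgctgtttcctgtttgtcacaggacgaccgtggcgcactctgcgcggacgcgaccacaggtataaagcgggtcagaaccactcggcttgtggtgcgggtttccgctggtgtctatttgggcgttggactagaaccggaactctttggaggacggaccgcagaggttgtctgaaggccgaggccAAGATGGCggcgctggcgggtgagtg

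Promoter sequences were matched for 39 of the 44 members. They were searched on both strands for 4 short sequences that activators of respiratory genes bind. These were GCGCATGCG for NRF1, CCGGAAGT for GABPA, AAGATGGC for YY1 and TCAAGGTCA for ESRRA, and none of them contains another. The YY1 motif was present in 8 members (20.5%), against 3.19% of the 27025 genes in the promoter table, and in all 8 it began between 10 and 38 bases after the annotated start. Ndufc1 and Ndufs7 carried it 22 and 24 bases after the start. The NRF1 motif was present in 4 members (10.3%), against 1.95% of all genes. The GABPA motif was present in 1 member (2.56%), Ndufs3, where it lay at the start itself, against 4.31% of all genes. The ESRRA motif was present in 0 members, against 0.466% of all genes. At least 1 of the 4 motifs was found in 13 members (33.3%), against 9.39% of all genes. The windows of Ndufa6 and Ndufs7 differ in this respect, with no match in the first and a YY1 match in the second. A match is a description of letters in a window and not a measured binding site. The 27025 genes include many that were not tested on the array, and no motif share was computed over the tested genes alone.

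Between 15374 and 16839 probes per array were detected, and the correlation between arrays was 0.983 to 0.994 over the probes kept for testing. Hepatocyte markers such as Alb, which encodes albumin, were on the array in 10 of 10 cases, all 10 were kept and 8 were detected on every array. The labels name hepatocytes as the source, yet 9 Kupffer cell and macrophage markers and 7 endothelial markers were also kept, of which 8 and 6 were detected on every array. In such bulk samples, fewer cells of a type and less RNA per cell cannot be told apart. The signal of the brightest kept probe annotated to Stk11, the gene of LKB1, was nearly equal in the groups. Stk11 had a log2 intensity of 9.66 ± 0.085 in LKB1 livers (SD, n = 6) and 9.60 ± 0.12 in untreated livers (SD, n = 4), a log2 fold change of 0.06 with a limma adjusted p of 0.930. No source used here says where in the transcript the probe lies or whether it reads RNA of the plasmid, so this signal does not check the labels. The arrays were clustered on probes that no array detected and cut into 2 sets, a number fixed beforehand. Set A held LKB1 mice 1, 2 and 4 and untreated mice 1 and 2. Set B held LKB1 mice 5, 6 and 7 and untreated mice 3 and 4. On these probes the Spearman correlation between arrays was 0.522 within sets and 0.482 between sets. The sets were cut from these same correlations, so the difference follows from the clustering and does not test the sets. The files do not say what the sets are.

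No complex I gene changed significantly. Of the 44 members, 41 had a probe kept for testing, and 0 of 41 passed an adjusted p of 0.05 in limma, against 0% of all 9725 genes tested. The smallest adjusted p of a member was 0.689, and of any gene 0.166. At an unadjusted p under 0.05, 3 members were lower in LKB1 livers and 0 were higher, against 3.1% of all genes lower and 3.21% higher. These 3 were Ndufb7, Ndufaf2 and Ndufa6.

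The small differences lay mostly on 1 side. The log2 fold change was below 0 in 36 of 41 members, against 50.8% of all genes, with a median of -0.08 over the members and 0.00 over all genes (-0.00253). The values ran from -0.36 for Ndufaf2 to 0.04 for Ndufaf4. The members above 0 were Ndufaf4 at 0.04, Ndufv3 at 0.03, Ndufaf1 at 0.02, Ndufaf7 at 0.01 and Ndufa9 at 0.0012, and all 5 were below 0 when arrays were brought only to equal medians instead of equal distributions. That scaling moved the median of all genes to -0.16 and that of the members to -0.27, so that 40 of 41 members lay below the median of all genes, against 35 of 41 with the main scaling. The count below 0 was 25 of 28 among members with a mean log2 intensity of at least 10, against 52.5% of all genes that bright, and 11 of 13 among the dimmer ones. Members are measured in the same mice and are not independent of each other, and the list as a whole was not tested.

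**Figure D1:**
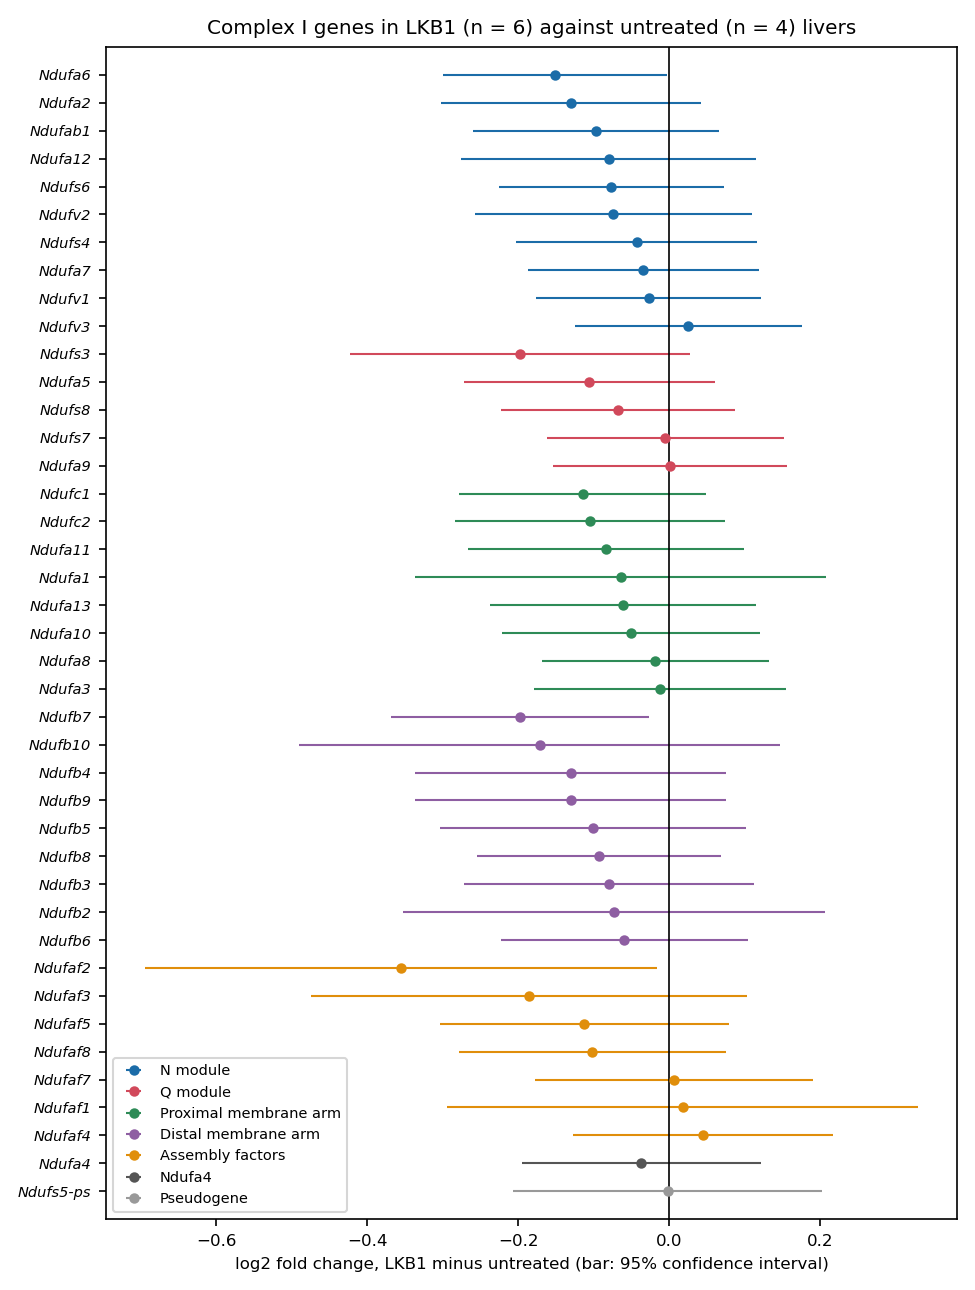
Log2 fold change of each of the 41 tested complex I genes, LKB1 (n = 6) minus untreated (n = 4) livers, with 95% confidence intervals from limma, grouped by module. Most points lie left of 0, between -0.36 and 0.04, and 3 intervals lie wholly below 0; the 5 points right of 0 were below 0 when arrays were brought only to equal medians.

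The intervals are for the difference between group means under the main scaling and do not cover the choice of scaling. Their width rests partly on the variance of all kept probes, which limma uses in estimating the variance of each gene. With arrays brought only to equal medians, the median log2 fold change of the members was -0.27. The 95% confidence interval reached 0.148 to 0.340 to either side of the log2 fold change, with a median of 0.172. It lay within 0.5 log2 units of 0 in 40 of 41 members, with Ndufaf2 as the exception, whose interval ran from -0.70 to -0.016. The standard deviation within groups was 0.053 to 0.276 log2 units, with a median of 0.094.

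The N module, where NADH is oxidised, held 10 tested members, 9 of them below 0 with a median of -0.08 and 0 past the threshold. Ndufa6 is a small protein of the LYR family that binds the mitochondrial acyl carrier protein. Its log2 intensity was 12.35, 12.41, 12.44, 12.42, 12.50 and 12.46 in LKB1 mice 1, 2, 4, 5, 6 and 7, against 12.52, 12.55, 12.65 and 12.62 in untreated mice 1 to 4. Every LKB1 mouse lay below every untreated mouse, which held on the brightest kept probe for 1 of 41 members and for 0.792% of all genes. The opposite order, every LKB1 mouse above every untreated mouse, held for 0 members and for 0.524% of all genes. The means were 12.43 ± 0.050 in LKB1 livers and 12.58 ± 0.058 in untreated livers (SD, n = 6 and n = 4), a log2 fold change of -0.15 ± 0.068 (SE) with a limma adjusted p of 0.743, or 1.11-fold lower.

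Ndufa2, a subunit with a thioredoxin-like fold, had log2 intensities of 11.99, 12.01, 12.12, 11.95, 11.97 and 11.99 in LKB1 mice 1, 2, 4, 5, 6 and 7, against 12.13, 12.13, 12.30 and 11.98 in untreated mice 1 to 4. All 6 LKB1 mice lay below the untreated mean, and untreated mouse 4 fell among them. The log2 fold change was -0.13 ± 0.079 (SE), with a limma adjusted p of 0.820.

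Both tested core subunits of the module, which carry its redox centres, overlapped between the groups. Ndufv1, the subunit that binds NADH and the flavin cofactor, had 12.36, 12.36, 12.39, 12.34, 12.24 and 12.26 in LKB1 mice 1, 2, 4, 5, 6 and 7, against 12.41, 12.36, 12.31 and 12.32 in untreated mice 1 to 4. For Ndufv1, every array of set A (12.36 to 12.41) was above every array of set B (12.24 to 12.34). This order of the sets held for 2 of 41 members and the opposite order for 0. The same share over all genes is not given here. The log2 fold change of Ndufv1 was -0.03 ± 0.069 (SE). Ndufv2, an iron-sulfur subunit beside it, had 12.14, 12.28, 12.20, 11.95, 12.09 and 12.04 in LKB1 mice 1, 2, 4, 5, 6 and 7, against 12.18, 12.32, 12.16 and 12.10 in untreated mice 1 to 4. The highest value of Ndufv2 was from an untreated mouse and the lowest from an LKB1 mouse, with the others mixed, and the log2 fold change was -0.07 ± 0.084 (SE).

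The other N module members had log2 fold changes of -0.10 for Ndufab1, the mitochondrial acyl carrier protein, -0.08 for Ndufa12, -0.08 for Ndufs6, -0.04 for Ndufs4, a late-joining accessory subunit lost in a human form of Leigh syndrome, -0.03 for Ndufa7 and 0.03 for Ndufv3. Ndufs1, the largest core subunit, was detected on 0 of 10 arrays and was not tested.

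The Q module, which hands the electrons to ubiquinone, held 5 tested members, 4 of them below 0 with a median of -0.07. Ndufs3, a core subunit around which this module is built early in assembly, had 10.64, 10.69, 10.79, 10.33, 10.46 and 10.43 in LKB1 mice 1, 2, 4, 5, 6 and 7, against 10.81, 10.85, 10.77 and 10.58 in untreated mice 1 to 4. The groups overlapped because LKB1 mice 1, 2 and 4 lay above untreated mouse 4. Within set A and within set B, however, every LKB1 mouse was below every untreated mouse. The means were 10.56 ± 0.18 in LKB1 livers and 10.75 ± 0.12 in untreated livers (SD, n = 6 and n = 4), a log2 fold change of -0.20 ± 0.10 (SE) with a limma adjusted p of 0.787.

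Ndufs8, which carries iron-sulfur clusters on the path to ubiquinone, had 11.29, 11.35, 11.35, 11.29, 11.24 and 11.27 in LKB1 mice 1, 2, 4, 5, 6 and 7, against 11.39, 11.46, 11.38 and 11.24 in untreated mice 1 to 4. Of the untreated mice, 3 lay above all LKB1 mice and mouse 4 was at their lower end, for a log2 fold change of -0.07 ± 0.071 (SE). Ndufs7, which holds the last iron-sulfur cluster before ubiquinone, had 11.90, 11.86, 12.05, 11.90, 11.81 and 11.93 in LKB1 mice 1, 2, 4, 5, 6 and 7, against 11.94, 11.97, 11.88 and 11.87 in untreated mice 1 to 4. The groups of Ndufs7 overlapped throughout, with a log2 fold change of -0.0053 and a 95% confidence interval of -0.16 to 0.15. Ndufa5 stood at -0.11 and Ndufa9, which binds a nucleotide cofactor near the ubiquinone site, at 0.0012.

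**Figure D2:**
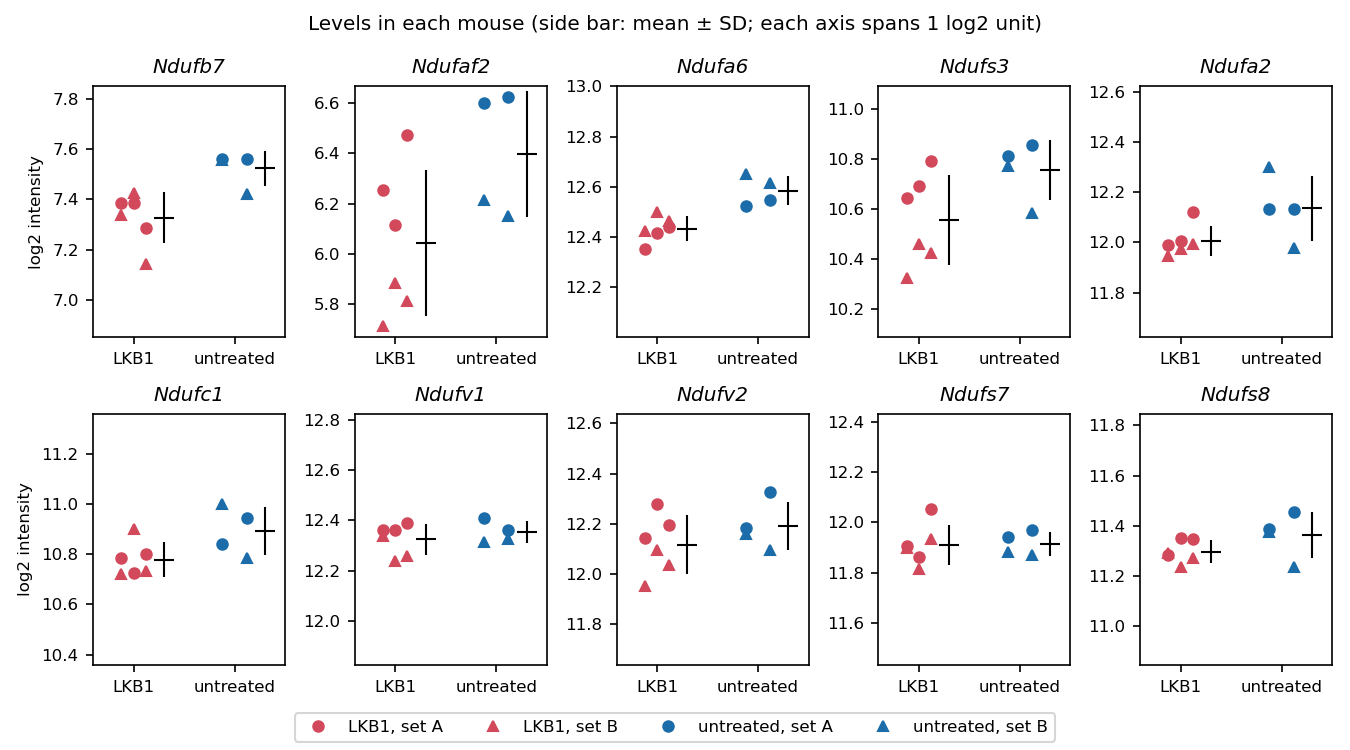
Log2 intensity of 10 complex I genes in each mouse, LKB1 (n = 6, red) left of untreated (n = 4, blue), with circles for array set A, triangles for set B and a side bar for the group mean ± SD. Every axis spans 1 log2 unit; Ndufa6 shows the 6 LKB1 mice between 12.35 and 12.50, all below the untreated mice, while the groups of the other 9 genes overlap.

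The proximal membrane arm held 8 tested members, all 8 below 0 with a median of -0.06. Ndufc1, a small membrane subunit, had 10.79, 10.73, 10.80, 10.72, 10.90 and 10.73 in LKB1 mice 1, 2, 4, 5, 6 and 7, against 10.84, 10.94, 11.00 and 10.79 in untreated mice 1 to 4. The groups overlapped, with 3 LKB1 mice below all untreated mice and 2 untreated mice above all LKB1 mice, and the log2 fold change was -0.11 ± 0.075 (SE), with a limma adjusted p of 0.836. Its partner in the arm, Ndufc2, stood at -0.11, Ndufa11 at -0.08, Ndufa1 at -0.06 and Ndufa10 at -0.05. Ndufa13, also known as GRIM-19, stood at -0.06, and Ndufa8 and Ndufa3 at -0.02 and -0.01. Ndufs5 itself was not analysed here. A probe annotated to Ndufs5-ps, a transcribed pseudogene of it, had a log2 fold change of -0.0018, and whether it also reads the parent gene was not tested.

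The distal membrane arm held 9 tested members, all 9 below 0. Its median of -0.10 was farther from 0 than that of the other structural modules, a difference that was not tested. Most of these 9 had a mean log2 intensity under 10. Over all tested complex I members that dim the median was -0.11, against -0.06 over those with a mean of at least 10. Ndufb7, a twin-cysteine protein on the intermembrane-space side, had the smallest p of all members. It had 7.39, 7.38, 7.28, 7.34, 7.43 and 7.14 in LKB1 mice 1, 2, 4, 5, 6 and 7, against 7.56, 7.56, 7.56 and 7.42 in untreated mice 1 to 4. The lowest untreated mouse, number 4, lay just below the highest LKB1 mouse, number 6, and the other 5 LKB1 mice were below all untreated mice. The means were 7.33 ± 0.10 in LKB1 livers and 7.52 ± 0.070 in untreated livers (SD, n = 6 and n = 4), a log2 fold change of -0.20 ± 0.079 (SE), or 1.15-fold lower, with a limma adjusted p of 0.689.

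The other distal members stood at -0.17 for Ndufb10, -0.13 for Ndufb4 and for Ndufb9, a second LYR protein of the complex, -0.10 for Ndufb5, -0.09 for Ndufb8, -0.08 for Ndufb3, -0.07 for Ndufb2 and -0.06 for Ndufb6. The groups of each of these 8 genes overlapped. Ndufb11, on the X chromosome, was detected on at most 2 arrays and was not tested, and Ndufb1 was not analysed here.

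Of the assembly factors, which act on the growing complex and are absent from the finished one, 7 were tested, and 4 were below 0 with a median of -0.10. Ndufaf2, a relative of the subunit Ndufa12 that acts late in assembly, had 6.25, 6.11, 6.47, 5.71, 5.88 and 5.81 in LKB1 mice 1, 2, 4, 5, 6 and 7, against 6.60, 6.62, 6.21 and 6.15 in untreated mice 1 to 4. Set B was low in both groups, and LKB1 mice 1 and 4 of set A lay above the untreated mice of set B. Within each set, every LKB1 mouse was below every untreated mouse. The means were 6.04 ± 0.29 in LKB1 livers and 6.40 ± 0.25 in untreated livers (SD, n = 6 and n = 4), a log2 fold change of -0.36 ± 0.16 (SE), or 1.28-fold lower, with a limma adjusted p of 0.731.

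Ndufaf3 and Ndufaf4, which act together on the Q module, stood at -0.19 and 0.04. Ndufaf5, which hydroxylates an arginine of Ndufs7, and its stabiliser Ndufaf8 stood at -0.11 and -0.10. Ndufaf7, a methyltransferase, stood at 0.01. Ndufaf1, part of the complex that assembles the membrane arm, stood at 0.02. As for Ndufv1, every array of set A (8.55 to 8.78) was above every array of set B (8.13 to 8.37). Ndufaf6 was detected on 0 arrays and was not tested. Ndufa4, named as a complex I subunit but now counted with cytochrome c oxidase, had 13.28, 13.20, 13.23, 13.21, 13.38 and 13.36 in LKB1 mice 1, 2, 4, 5, 6 and 7, against 13.24, 13.37, 13.33 and 13.33 in untreated mice 1 to 4. Its groups overlapped fully, with a log2 fold change of -0.04 ± 0.073 (SE).

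Several members had more than 1 probe, and the additional probes lay on the same side. The 16 other kept probes of 12 genes were all below 0, from -0.24 to -0.0077, against 51% of all probes tested, with 0 past an adjusted p of 0.05 in limma and 1 lower at an unadjusted p under 0.05, against 3.18% of all probes. That 1 was a dimmer probe of Ndufab1, with 9.03, 9.11, 9.17, 9.17, 9.11 and 8.89 in LKB1 mice 1, 2, 4, 5, 6 and 7, against 9.29, 9.29, 9.32 and 9.29 in untreated mice 1 to 4. Every LKB1 mouse was below every untreated mouse on this probe, as on 0.797% of all probes, with a log2 fold change of -0.21 ± 0.076 (SE) and a limma adjusted p of 0.645. The brightest Ndufab1 probe overlapped between the groups at -0.10. For Ndufaf4 the other probe stood at -0.09, and for Ndufv3 the other 2 at -0.07 and -0.13, opposite in sign to their brightest probes. The kept Ndufs4 probes ranged from -0.24 to -0.0077. Of the 68 member probes, 11 were not kept, and 9 of these were detected on no array.

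The mice were compared over all 41 members at once, each value taken as its distance from that gene's untreated mean. The median distance was -0.09, -0.06, -0.02, -0.11, -0.09 and -0.13 log2 units in LKB1 mice 1, 2, 4, 5, 6 and 7, against -0.01, 0.05, 0.03 and -0.09 in untreated mice 1 to 4. Untreated mouse 4 lay within the LKB1 range, and LKB1 mouse 4 lay close to untreated mouse 1, so the groups overlapped. LKB1 mouse 7 had 37 of 41 members below the untreated mean and was the lowest of all 10 mice for 14 genes. Untreated mice 2 and 3 were the highest of all mice for 11 and 12 members. Over all genes, the same median distance was 0.04 in untreated mouse 3, close to its value for the members, and between -0.012 and 0.0076 in the other 9 mice. Without untreated mouse 4 the median log2 fold change of the members was -0.11 and 5 of 41 members were lower at an unadjusted p under 0.05, against 3.43% of all genes in that fit. Without untreated mouse 2 the median was -0.05, with 0 members lower at that level against 1.95% of all genes. Without LKB1 mouse 7 it was -0.06, with 0 members against 3.11% of all genes. The call of no significant member did not depend on any single mouse.

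**Figure D3:**
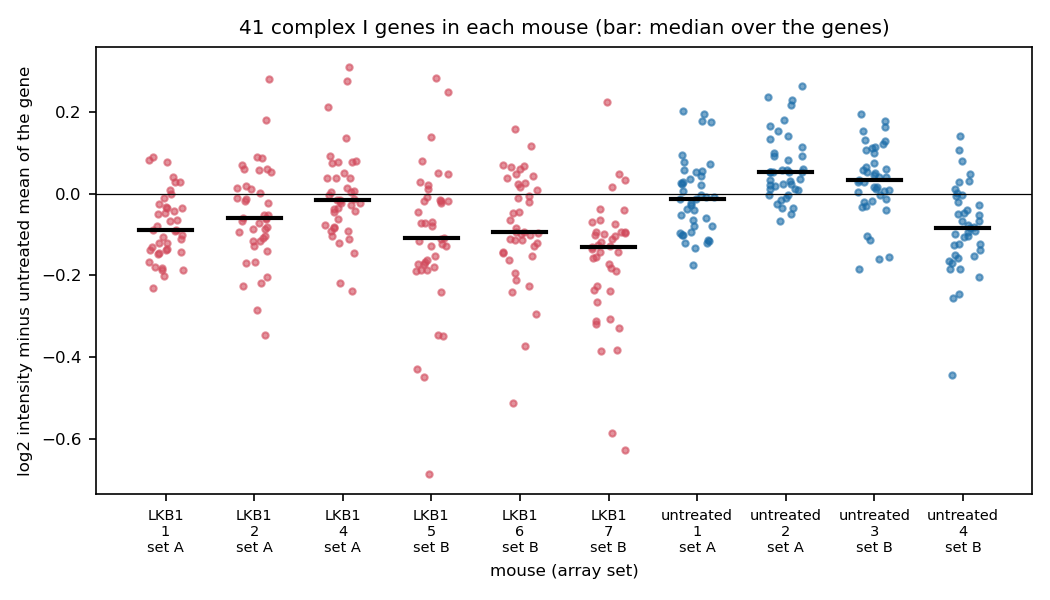
Distance of each of the 41 complex I genes from its untreated mean in log2 units, by mouse, with LKB1 mice (red) left of untreated mice (blue) and a bar at the median of the genes. The medians run from -0.13 to -0.02 in LKB1 mice and from -0.09 to 0.05 in untreated mice, with untreated mouse 4 among the LKB1 mice.

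The array sets were taken into account because each held mice of both groups. With the set as a block, Ndufaf2 had a log2 fold change of -0.36 ± 0.081 (SE) and a limma adjusted p of 0.259, and 0 members passed 0.05. At an unadjusted p under 0.05, 4 members were lower, Ndufaf2, Ndufs3, Ndufb7 and Ndufa6, against 4.19% of all genes. Within both sets every LKB1 mouse was below every untreated mouse for 3 of 41 members, Ndufaf2, Ndufs3 and Ndufa6, against 2.01% of all genes, and 0 members were higher in this way, against 1.8% of all genes. Their log2 fold changes were -0.33 in set A and -0.38 in set B for Ndufaf2, -0.12 and -0.27 for Ndufs3, and -0.13 and -0.17 for Ndufa6. This comparison within sets was added after the values were seen. Over the members, 33 were below 0 in set A and 34 in set B, with medians of -0.06 and -0.075.

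The subunits that mitochondrial DNA encodes are made by a separate transcription system. Of 7 such genes, 5 were on the array and 4 were tested, with 0 past the threshold. ND4L stood at -0.13, ND6 at -0.10, ND1 at -0.08 and ND4 at 0.03, a median of -0.09. The other assembly genes outside the Nduf names were below 0 in 11 of 12 tested cases, with a median of -0.06 and 0 called. Among them Dmac2, a factor of the distal membrane arm, stood at -0.19 and Tmem126b, which works beside Ndufaf1, at -0.26, with limma adjusted p of 0.758 and 0.792.

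The other respiratory complexes lay on the same side. Of the subunits of complexes II to V, 26 of 31 were below 0 with a median of -0.04 and 0 called, and Cox6c of cytochrome c oxidase and Atp5e of ATP synthase had the smallest p at -0.21 and -0.18. General markers of mitochondrial content did not lie on that side, with 3 of 9 below 0 and a median of 0.02. Citrate synthase, Cs, stood at 0.13 and Tomm40, the channel of the outer-membrane import machinery, at -0.17. Genes of iron-sulfur cluster assembly, which supply the cofactors of the matrix arm, were below 0 in 7 of 9 cases with a median of -0.06. The differences between these lists and the complex I genes were not tested.

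**Figure D4:**
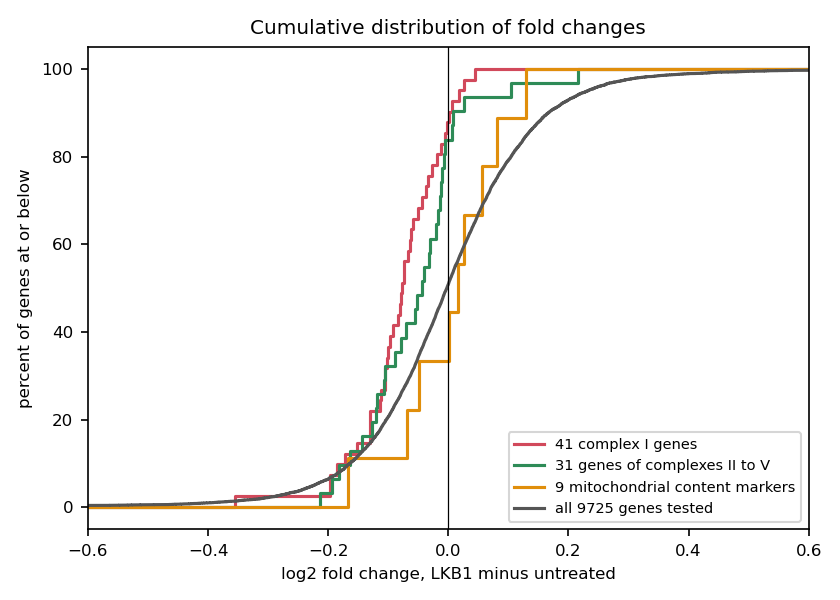
Cumulative share of genes, in percent, at or below each log2 fold change (LKB1 minus untreated livers) for the 41 complex I genes, 31 genes of complexes II to V, 9 markers of mitochondrial content and all 9725 genes. The complex I curve has its median at -0.08 and that of complexes II to V at -0.04, while the content markers and all genes have theirs at 0.02 and 0.00; the horizontal position of all curves depends on the scaling of the arrays.

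Of 12 tested regulators of mitochondrial gene expression, 6 were below 0, with a median of -0.06 and 0 called. Ppara, the nuclear receptor that drives fatty acid oxidation in liver, had 6.30, 6.40, 6.40, 6.28, 6.42 and 6.08 in LKB1 mice 1, 2, 4, 5, 6 and 7, against 6.63, 6.89, 6.62 and 6.95 in untreated mice 1 to 4. Every LKB1 mouse was below every untreated mouse, which held for 1 of the 12 regulators and for 0.792% of all genes. The log2 fold change of Ppara was -0.46 ± 0.098 (SE), with a limma adjusted p of 0.353. Pprc1, a coactivator of the PGC-1 family, stood at 0.48 with an adjusted p of 0.647 in limma, and its groups overlapped.

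Markers of other cell types were read beside these values. All 9 tested Kupffer cell and macrophage markers were above 0, with a median of 0.23 and 0 called, and C1qa and C1qb, chains of the complement protein C1q, stood at 0.37 and 0.43. Their summed intensity was 3220 to 4505 in LKB1 livers and 2233 to 3938 in untreated livers, and Cd5l was detected on 0 arrays. Endothelial markers were above 0 in 6 of 7 cases, with a median of 0.02 and a summed intensity of 6501 to 7893 in LKB1 livers and 5451 to 7677 in untreated livers. Hepatocyte markers were above 0 in 6 of 10 cases, with a median of 0.02 and a summed intensity of 122628 to 136368 in LKB1 livers and 121132 to 136561 in untreated livers. Stellate cell markers had a median of 0.0020 over 7 genes, and their summed intensity was 4809 to 10654 in LKB1 livers and 4975 to 7128 in untreated livers. Of the bile duct markers, Sox9 was detected on 10 arrays and Krt7 on 7, with log2 fold changes of 0.12 and -0.26 and 0 called, while Krt19 and Epcam were detected on 0 arrays. Of the lymphocyte and neutrophil markers 3 were kept, none detected on all arrays, and Cd8a, Ms4a1, S100a9 and Ngp were detected on 0 arrays. The 3 tested red cell markers were below 0, with a median of -0.14. The part of cell composition in the complex I values was not tested.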

How the data were processed

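The authors deposited, per the file headers, an average signal for each probe and array, a linear intensity not normalized between arrays, with a detection p-value. The authors' processed values, which rank probes as each array's own intensity does, were read as log2 from that comparison, since no header names the base; their median was 4.36 on every array. The package lumi is named per the submitters' processing notes. No source used here says whether background had been subtracted from the deposited intensity.

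Intensities were background-corrected by normexp using the detection p-values, with an offset of 16, quantile-normalized and log2-transformed (limma 3.58.1, R 4.3.3). A probe was kept, as 16803 of 45281 were, if its detection p was under 0.05 on 4 or more arrays. Of all probes, 34885 had 1 gene symbol in GEO's platform annotation, 18 had several and 10378 were unnamed. A gene was represented by its brightest kept probe. The group comparison used lmFit and eBayes in limma without covariates, two-sided, with Benjamini-Hochberg adjustment over all kept probes. Intervals are at 95%. The number of arrays, 10, limits the precision. Each array was taken as 1 mouse, since the design text counts animals.

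The members and all lists were chosen with earlier results of these data known. Values of every mouse are given for the 6 members of smallest p, the core subunits and the member of smallest p in each module. From each other list the 2 genes of smallest p could be named; ND6 and ND4 were named after their values were seen. One LKB1 title was read as replicate 1. Replicate numbers 1, 2 and 4 occur in both groups; deviations of mice with the same number correlated at 0.146, 0.239 and -0.166, so the numbers were not used as pairs. The array sets came from clustering the arrays on the 24495 probes detected on no array, cut into 2 sets. The fit was tested on simulated data with changes larger than those of the members under the main scaling. That test does not cover changes as small as theirs. Alternatives changed the background correction, the scaling, the filter, the choice of probe, the array set, array weights and the mice included. Figures were drawn with matplotlib 3.10.9.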

Additional observations from a re-analysis of the deposited data

Results flagged for a closer look

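Of 86 groups tested (each member, Stk11 and the median of the members in each group of mice), 9 held a mouse far from the others of its group, 5 among LKB1 and 4 among untreated groups. Chance flags about 1 in 20 groups. In the LKB1 group, mouse 4 was high for Ndufa2 at 12.12 log2 units, with the next mouse at 12.01, and high for Ndufb10 at 8.83, with the next at 8.35. LKB1 mouse 6 was high for Ndufa5 at 11.22, LKB1 mouse 5 was high for Ndufa11 at 10.66, and LKB1 mouse 7 was low for Ndufa12 at 10.87. In the untreated group the outlying mouse was number 4 each time, and it was the lowest: Ndufb7 at 7.42, with the next mouse at 7.56, Ndufb8 at 12.67, with the next at 12.83, Ndufb10 at 8.11, with the next at 8.68, and Ndufv3 at 12.27, with the next at 12.37.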

How the results depend on the processing

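No member passed an adjusted p of 0.05 in limma under any of the 21 alternatives tried. Of 861 pairs of a member and an alternative, 808 kept the sign of the reported value, and 24 members kept 1 sign under all alternatives, all below 0. Scaling to equal medians put all 41 members below 0, so a member above 0 could not be among these 24. With arrays brought only to equal medians the median of the members was -0.27, and Ndufaf4, Ndufv3, Ndufaf1, Ndufaf7 and Ndufa9 turned to -0.17, -0.21, -0.17, -0.15 and -0.23; 11 genes, none of them a member, were then called, all lower. With the mean of a gene's probes, Ndufaf4 and Ndufv3 turned to -0.020 and -0.059. Within array set A, Ndufa12, Ndufa10 and Ndufa3 turned to 0.0075, 0.016 and 0.025. Within array set B, Ndufb2, Ndufa8, Ndufaf7, Ndufs7, Ndufs5-ps and Ndufa9 turned to 0.050, 0.013, -0.064, 0.0046, 0.050 and -0.026. With array weights, Ndufa3 turned to 0.0042. With the replicate number as a block, 29 members were below 0 with a median of -0.03 and 0 were called, and Ndufb3, Ndufa12, Ndufv2, Ndufa13, Ndufaf4, Ndufa1, Ndufv1, Ndufa3 and Ndufs7 turned to 0.0024, 0.0090, 0.0047, 0.028, -0.019, 0.0079, 0.0061, 0.047 and 0.014. The block fit uses mice 1, 2 and 4 of each group, whose numbers are not known to pair them. Leaving out 1 mouse at a time gave 32 to 37 members below 0 and a median of -0.11 to -0.05, and the sign turned for Ndufa1 (-0.12 to 0.013), Ndufa3 (-0.046 to 0.030), Ndufa8 (-0.052 to 0.0016), Ndufa9 (-0.039 to 0.038), Ndufaf1 (-0.067 to 0.096), Ndufaf7 (-0.028 to 0.055), Ndufs5-ps (-0.058 to 0.034) and Ndufs7 (-0.034 to 0.014). The cause of these turns was not tested.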
